A study of Bos indicus with 9 samples.

Results

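Lipoprotein uptake and cholesterol ester handling is described here through the probe sets of 9 chosen genes, SCARB1, NPC1, NPC2, NCEH1, SOAT1, LIPE, LIPA, ABCA1 and APOE. Every probe set whose symbol in the array's probe table is one of these was taken, which gave 12 probe sets of 8 genes. They stand among 23970 tested probe sets and 9148 gene symbols, where the mark for a missing symbol is counted as 1. Of the 12, LIPE has 4, NCEH1 has 2, and SCARB1, NPC1, NPC2, SOAT1, LIPA and APOE have 1 each. The probe table gives 0 probe sets the symbol ABCA1, so this exporter of cholesterol was not analysed here.

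The tissue was the corpus luteum of Nelore crossbred cows (labelled Bos indicus, 2 to 5 years old), and each of the 9 arrays holds the RNA of 1 cow. Stimulated cows (n = 3) were given eCG, equine chorionic gonadotropin, at 400 IU on day 8 of synchronisation. Superovulated cows (n = 3) were given 2000 IU on day 4, and control cows (n = 3) received no eCG. All groups, control included, were synchronised with progesterone devices and estradiol benzoate and were slaughtered on day 6 after ovulation. The treated groups differ in dose and in day at once, which cannot be told apart, and the labels do not say how many corpora lutea a cow carried. Equine chorionic gonadotropin is a glycoprotein hormone of the mare that acts on both gonadotropin receptors of cattle.

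The corpus luteum makes progesterone from cholesterol, most of which arrives in plasma lipoproteins. Cholesterol esters enter through the receptor SCARB1 or by endocytosis. The esters that reach lysosomes are cleaved by LIPA, and NPC2 and NPC1 pass the free cholesterol out of the lysosome. Free cholesterol is used for steroid synthesis, re-esterified by SOAT1 for storage in lipid droplets, freed again by neutral hydrolases such as LIPE and NCEH1, or exported with APOE as an acceptor.

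Values are log2 signals restored from the deposited table, and a difference is always the mean log2 signal of the first-named group minus that of the second. The log base is read from the range of the values and is not given in the sources used here. Groups are compared within a probe set. The share of probe sets with a lower signal is given for some members to show how bright they are on the array, and it does not rank expression, since signals also depend on how well probes bind. Whole glands were profiled, so fewer cells of a type and less RNA per cell cannot be told apart. Array medians lay between 4.19 and 4.26, and correlations between arrays were 0.987 to 0.994 within groups and 0.986 to 0.993 between groups. Of 9 markers of steroidogenic luteal cells 8 had a tested probe set, and their mean level per array was 12.10 to 12.45 in stimulated, 12.03 to 12.42 in superovulated and 12.14 to 12.57 in control cows.

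NCEH1 was the only member whose 95% intervals excluded 0, in both comparisons with control, and it did not pass the test over all probe sets. Both of its probe sets gave lower signals in all 6 treated cows than in any control cow. SCARB1, NPC2 and SOAT1 differed between groups by at most 0.14 on the log2 scale. LIPA and NPC1 had higher mean signals in stimulated cows than in control cows, and APOE had a lower mean in superovulated cows than in either other group, all without passing.

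Each probe set was tested with limma across all probe sets with Benjamini-Hochberg adjustment, and an adjusted p under 0.05 counts as passing. None of the 12 probe sets passed in any of the 3 comparisons, where 0.00417% (stimulated against control), 0% (superovulated against control) and 0.00417% (superovulated against stimulated) of all probe sets passed. The lowest adjusted p of a member was 0.454 for stimulated against control, 0.563 for superovulated against control and 0.546 for superovulated against stimulated. At an unadjusted p under 0.05 the counts were 2 lower for stimulated against control, 2 lower for superovulated against control and 0 for superovulated against stimulated. The 2 in each case were the probe sets of NCEH1. Over all probe sets 6.4%, 6.2% and 9.65% met this threshold in either direction in these comparisons. With a lower signal alone the shares were 2.73% and 3.6% in the first 2. The members were chosen with earlier results of these data known, so the counts are a description.

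**Figure D1:**
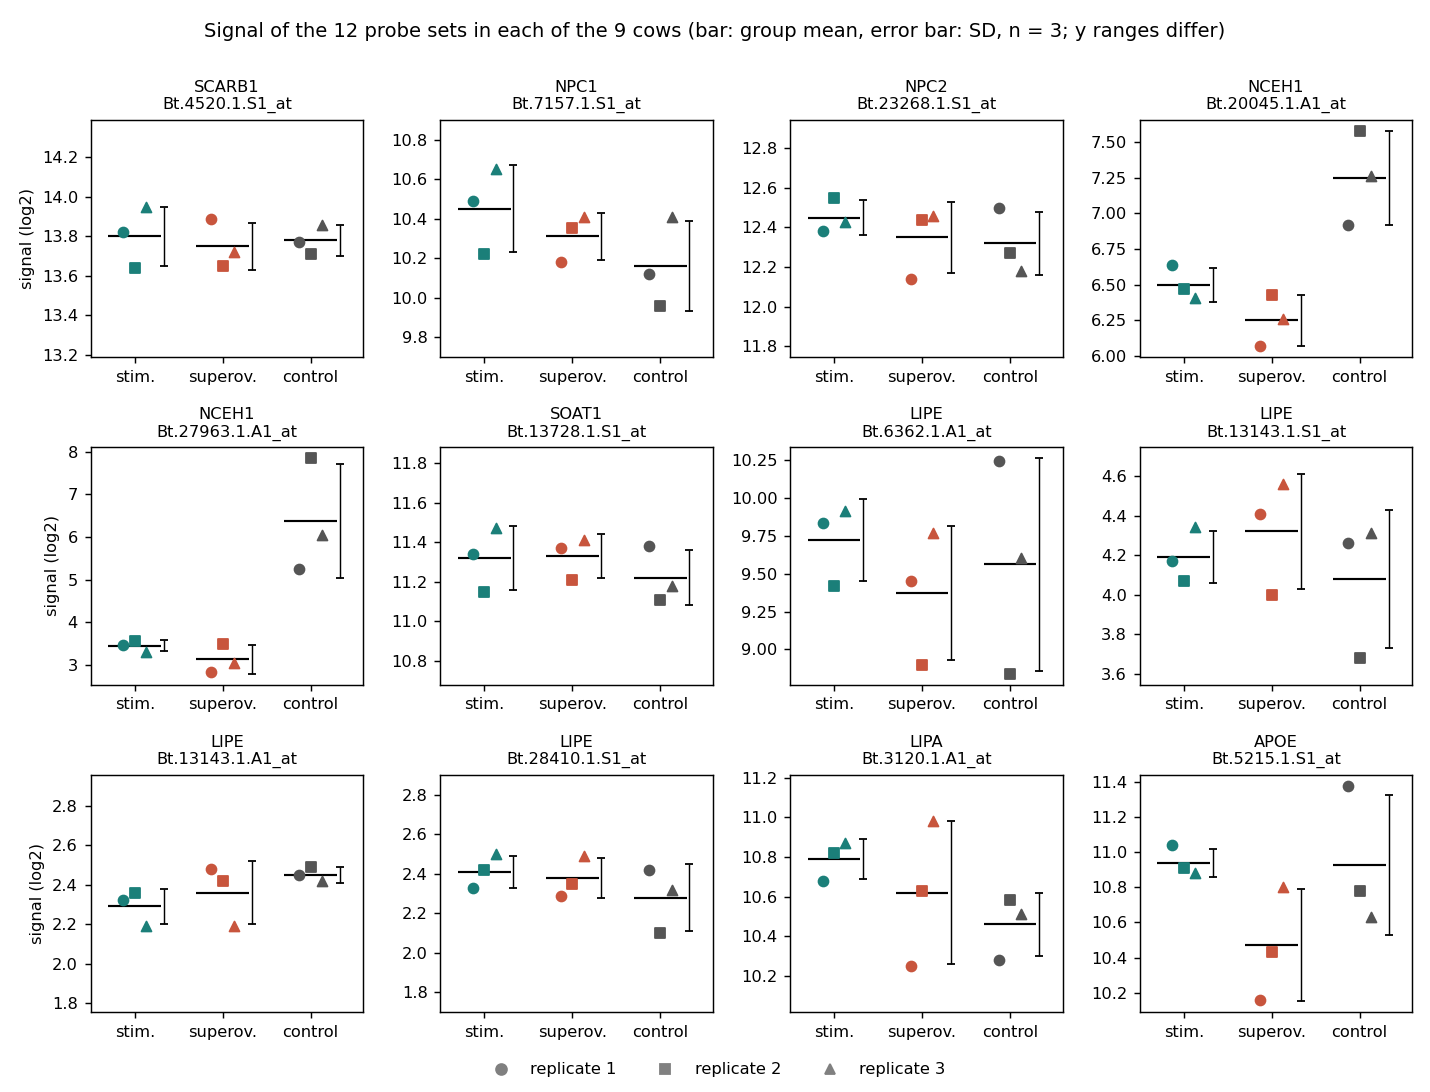
Signal (log2) of the 12 probe sets in each cow, by group (stimulated, superovulated, control), with the group mean as a bar and the SD as an error bar (n = 3), and marker shapes for replicate numbers; the y ranges differ between panels. The treated cows sit below the control cows in both NCEH1 panels, and the groups overlap in most others.

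SCARB1, the receptor that takes up cholesterol esters from high-density lipoprotein, had the steadiest bright signal of the set. It was 13.82, 13.64 and 13.95 in stimulated cows, 13.89, 13.65 and 13.72 in superovulated cows and 13.77, 13.71 and 13.86 in control cows. The 9 values span 0.30 and the groups overlap. The difference from control was 0.02 in stimulated cows (95% interval -0.21 to 0.26, adjusted p = 0.981 in limma) and -0.03 in superovulated cows (-0.26 to 0.21, adjusted p = 0.981). On every array at least 99.2% of probe sets had a lower signal than SCARB1.

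LIPA, the acid lipase that splits cholesterol esters in lysosomes, had signals of 10.68, 10.82 and 10.87 in stimulated cows, against 10.28, 10.58 and 10.51 in control cows. These groups do not overlap. Superovulated cows had 10.25, 10.63 and 10.98 and covered the range of both other groups. The difference between stimulated and control was 0.33 (SE 0.18, 95% interval -0.08 to 0.74, adjusted p = 0.833 in limma). Superovulated cows differed from control by 0.16 (-0.25 to 0.57, adjusted p = 0.912), and without superovulated replicate 3 this value was -0.0182.

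NPC1, the lysosomal membrane protein that exports free cholesterol, had signals of 10.49, 10.22 and 10.65 in stimulated cows, 10.18, 10.35 and 10.41 in superovulated cows and 10.12, 9.96 and 10.41 in control cows. The groups overlap. The difference from control was 0.29 in stimulated cows (SE 0.15, 95% interval -0.05 to 0.64, adjusted p = 0.818 in limma) and 0.15 in superovulated cows (-0.20 to 0.49, adjusted p = 0.904). The value of 0.29 was 0.19 without control replicate 2 and also without stimulated replicate 3. NPC2, the soluble protein that hands cholesterol to NPC1, averaged 12.45 ± 0.09 in stimulated, 12.35 ± 0.18 in superovulated and 12.32 ± 0.16 in control cows (SD, n = 3). Its differences from control were 0.14 in stimulated cows (-0.14 to 0.41) and 0.03 in superovulated cows (-0.24 to 0.30).

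Counting separations, 4 of the 12 probe sets (33.3%) did not overlap between stimulated and control cows, against 11.5% of all probe sets. They were LIPA, both probe sets of NCEH1 and a dim one of LIPE. Between superovulated and control cows the 2 of NCEH1 did not overlap (16.7%, lower, against 5.7% of all probe sets), and between superovulated and stimulated cows 1 did not, that of APOE (8.33%, lower, against 6.9%). The 5.7% and 6.9% count lower signals alone, a direction taken from the members. The 11.5% counts both directions, so these shares are not alike. With 12 probe sets from 8 genes these counts rest on few genes, since probe sets of 1 gene are not independent. The members were also chosen with earlier results of these data known, so the shares are a description and no test.

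SOAT1, the acyltransferase that makes cholesterol esters for storage, averaged 11.32 ± 0.16 in stimulated, 11.33 ± 0.11 in superovulated and 11.22 ± 0.14 in control cows (SD, n = 3). All 9 values lay between 11.11 and 11.47. The difference from control was 0.09 in stimulated cows (95% interval -0.16 to 0.35, adjusted p = 0.916 in limma) and 0.10 in superovulated cows (-0.15 to 0.36, adjusted p = 0.907). The interval leaves room for differences of up to 0.36.

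NCEH1, a membrane-bound neutral cholesterol ester hydrolase known from human and mouse macrophages, has probe sets Bt.20045.1.A1_at and Bt.27963.1.A1_at. On Bt.20045.1.A1_at the signals were 6.64, 6.47 and 6.41 in stimulated cows, 6.07, 6.43 and 6.26 in superovulated cows and 6.92, 7.58 and 7.26 in control cows. The highest treated cow was 0.28 below the lowest control cow. The difference from control was -0.75 in stimulated cows (SE 0.17, 95% interval -1.15 to -0.35, adjusted p = 0.527 in limma, rank 117 of 23970 by p). In superovulated cows it was -1.0 (SE 0.17, -1.40 to -0.60, adjusted p = 0.563 in limma, rank 18). If the scale is log2, these are signals of 0.594 and 0.499 times the control signal.

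On Bt.27963.1.A1_at the signals were 3.47, 3.57 and 3.31 in stimulated cows, 2.84, 3.50 and 3.05 in superovulated cows and 5.24, 7.85 and 6.05 in control cows. Here the gap between the highest treated and the lowest control cow was 1.67. Control cows spread over 2.61 and the 6 treated cows over 0.73. The difference from control was -2.93 in stimulated cows (SE 0.58, 95% interval -4.26 to -1.60, adjusted p = 0.454 in limma, rank 52 of 23970 by p). In superovulated cows it was -3.25 (SE 0.58, -4.58 to -1.91, adjusted p = 0.598 in limma, rank 21).

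Both comparisons use the same 3 control cows, so they are not independent of each other. Treated groups below control without overlap in both comparisons were found for 1.14% of all probe sets. In the F test across the 3 groups the NCEH1 probe sets ranked 57 (Bt.27963.1.A1_at) and 68 (Bt.20045.1.A1_at) of 23970, with an adjusted p of 0.394 in limma for both, and 0.00417% of all probe sets passed it. Between the treated groups the NCEH1 differences were -0.25 (superovulated minus stimulated, 95% interval -0.65 to 0.15) and -0.32 (-1.65 to 1.02).

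The NCEH1 probe sets differ in the size of the gap and in where they lie on the array. On Bt.27963.1.A1_at, 38.7% to 42.3% of probe sets had a lower signal on the stimulated arrays, 28.2% to 41.6% on the superovulated arrays and 58.0% to 72.5% on the control arrays. On Bt.20045.1.A1_at the shares were 64.7% to 66.1%, 63.4% to 65.2% and 67.9% to 71.1%. Over the 9 cows the 2 probe sets had a Pearson correlation of 0.97 and, for deviations from the group means, of 0.90, given as a description of probe sets that share the same RNA samples. In both, control replicate 2 was highest and control replicate 1 lowest among control cows.

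**Figure D2:**
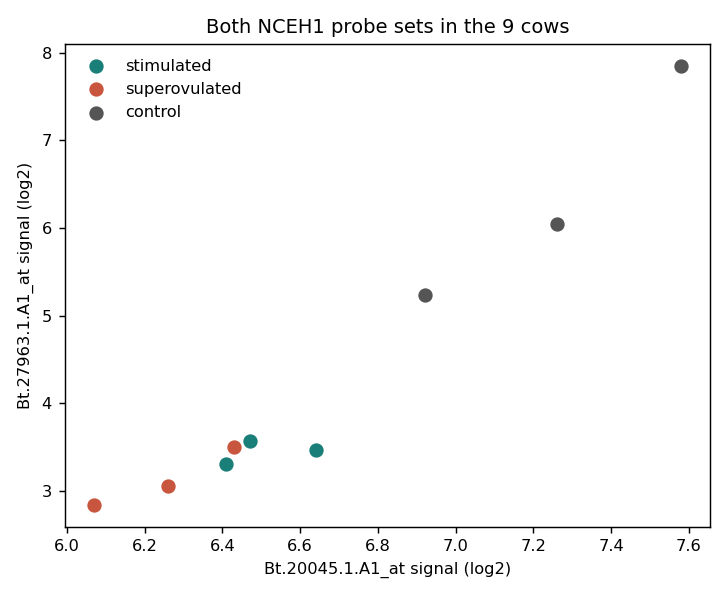
Signal (log2) of the NCEH1 probe set Bt.27963.1.A1_at (y axis) against Bt.20045.1.A1_at (x axis), 1 point per cow, coloured by group. The 6 treated cows lie at or below 3.57 on the y axis and 6.64 on the x axis, and the 3 control cows lie at or above 5.24 and 6.92.

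Levels of macrophage markers were set beside NCEH1, since NCEH1 is known from these cells. Of 20 macrophage and myeloid markers 15 had a tested probe set, and their mean level per array was 6.53 to 7.67 in stimulated, 6.32 to 7.42 in superovulated and 5.01 to 6.25 in control cows. The lowest treated cow (6.32) was slightly above the highest control cow (6.25) in this mean level, the opposite order to NCEH1. Within each group, however, replicate 2 was highest both in this mean level and on NCEH1 Bt.27963.1.A1_at. On Bt.20045.1.A1_at replicate 2 was highest in superovulated and control cows but not in stimulated cows. Of the 15, 15 had a positive difference in stimulated and 14 in superovulated cows, against 48.8% and 50.8% of all probe sets, and 0 passed in either comparison. At an unadjusted p under 0.05, 9 of the 15 were higher in stimulated and 4 in superovulated cows, beside 3.67% and 2.6% of all probe sets. This list, too, was chosen with earlier results of these data known, so its counts are a description and no test. LYZ2 and CD68, both among the 4 counted in superovulated cows, had mean signals of 10.50 and 7.14 in stimulated cows. They had 10.33 and 6.48 in superovulated and 8.54 and 5.09 in control cows. For LYZ2 this is the brightest of 4 tested probe sets. C1QB and C1QC differed less between superovulated and control cows, by 0.35 and 0.41. ITGAM lay at the dim end of the array in all groups (2.54, 2.44 and 2.44). The 3' minus 5' difference in log2 signal of the GAPDH control, a sign of RNA quality, was -0.02 to 0.00 in stimulated, -0.04 to 0.02 in superovulated and -0.08 to -0.03 in control cows. For the EF1A control it was -1.77 to -1.60 in stimulated, -1.83 to -1.60 in superovulated and -1.90 to -1.77 in control cows. Control cows thus had the lowest mean for both. The actin control was dim, at most 3.21 on its 3' probe set. Its mean difference was -0.36 in stimulated, -0.40 in superovulated and -0.33 in control cows, so there control cows had the highest mean. The part of the markers or of these differences in the NCEH1 difference was not tested.

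By a rule based on likeness over the 9 cows, the probe sets that followed NCEH1 Bt.27963.1.A1_at most closely among 13266 with another single symbol were those of NUDT11, CETN3 and SEC22C. Their Pearson correlations with it over 9 arrays were 0.966, 0.930 and 0.918, chosen as the highest and given as a description. NUDT11 averaged 4.81 ± 0.15 in stimulated, 4.83 ± 0.15 in superovulated and 5.61 ± 0.49 in control cows (SD, n = 3). CETN3 averaged 11.20 ± 0.08 in stimulated, 11.20 ± 0.07 in superovulated and 11.48 ± 0.06 in control cows (SD, n = 3). The SEC22C probe set was dim, at 3.06 ± 0.14, 2.99 ± 0.04 and 3.30 ± 0.17 in these groups. NUDT11, CETN3 and SEC22C have 1, 2 and 1 other tested probe sets. Their likeness to NCEH1 is not given here, so the values hold for the named probe sets alone.

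LIPE, the hormone-sensitive lipase that frees cholesterol from stored esters, has 1 bright probe set. Bt.6362.1.A1_at had signals of 9.83, 9.42 and 9.91 in stimulated cows, 9.45, 8.90 and 9.77 in superovulated cows and 10.24, 8.84 and 9.60 in control cows. The groups overlap, and control cows span the full range of 1.41. The difference from control was 0.16 in stimulated cows (95% interval -0.68 to 1.0, adjusted p = 0.960 in limma) and -0.19 in superovulated cows (-1.03 to 0.65, adjusted p = 0.956). With 1 array left out these values ran from -0.20 to 0.50 and from -0.55 to 0.15. Its pooled SD within groups was 0.50, against 0.12 for SCARB1.

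The remaining LIPE probe sets are dimmer. Bt.13143.1.S1_at averaged 4.19 ± 0.13 in stimulated, 4.32 ± 0.29 in superovulated and 4.08 ± 0.35 in control cows (SD, n = 3), with overlap. Bt.28410.1.S1_at averaged 2.41 ± 0.08 in stimulated, 2.38 ± 0.10 in superovulated and 2.28 ± 0.17 in control cows. Bt.13143.1.A1_at averaged 2.29 ± 0.09 in stimulated, 2.36 ± 0.16 in superovulated and 2.45 ± 0.04 in control cows, and its stimulated cows lay below all control cows by a mean of 0.16 (difference -0.16, SE 0.09, adjusted p = 0.836 in limma). Only 14.6% and 14.3% of probe sets had a lower mean than Bt.13143.1.A1_at and Bt.28410.1.S1_at, so both sit near the dim end of the array. Over the 9 cows Bt.6362.1.A1_at had a correlation of 0.70 with Bt.13143.1.S1_at, 0.67 with Bt.28410.1.S1_at and -0.45 with Bt.13143.1.A1_at. Bt.13143.1.S1_at and Bt.13143.1.A1_at have the same source sequence in the probe table, yet their correlation was -0.54. Which strand each of them reads was not checked. The 4 therefore do not give 1 reading of LIPE.

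APOE, the apolipoprotein that accepts exported cholesterol and binds lipoprotein receptors, had signals of 10.16, 10.43 and 10.80 in superovulated cows, against 11.04, 10.91 and 10.88 in stimulated cows. These groups do not overlap. Control cows had 11.38, 10.78 and 10.63 and overlap with both. The difference was -0.48 for superovulated minus stimulated (SE 0.22, 95% interval -0.99 to 0.04, adjusted p = 0.546 in limma) and -0.46 for superovulated minus control (SE 0.22, -0.98 to 0.05, adjusted p = 0.810). Without control replicate 1 the value against control was -0.24, and without superovulated replicate 1 the value against stimulated was -0.33. Stimulated cows differed from control by 0.01 (-0.50 to 0.52, adjusted p = 0.995).

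**Figure D3:**
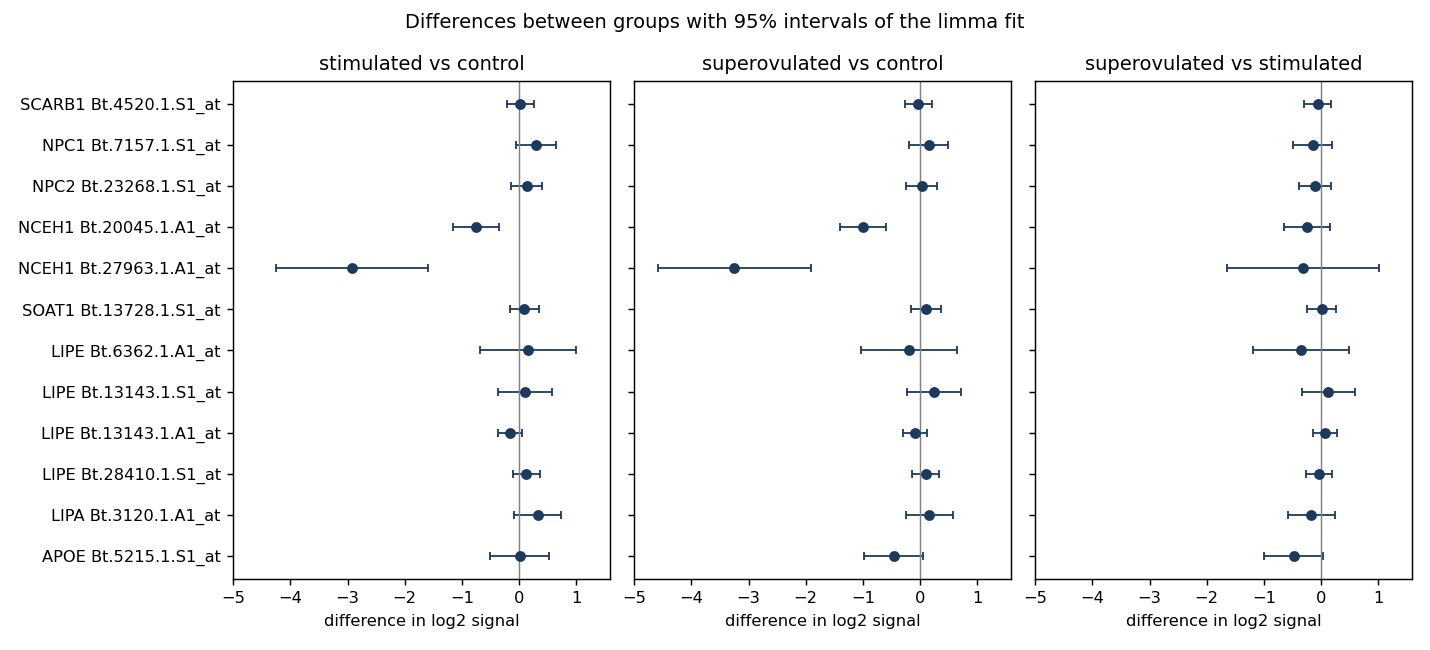
Difference in mean log2 signal (x axis) of the 12 probe sets for stimulated against control, superovulated against control and superovulated against stimulated, with 95% intervals of the limma fit (not adjusted over probe sets). The intervals of the NCEH1 probe sets exclude 0 in both comparisons with control, and all others include 0.

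Over all 12 probe sets the median difference was 0.102 for stimulated against control, 0.002 for superovulated against control and -0.124 for superovulated against stimulated. Over all 23970 probe sets it was -0.004, 0.002 and 0.005. Leaving NCEH1 aside, the largest difference in either direction was 0.33, 0.46 and 0.48 in these comparisons.

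Cows with the same replicate number shared a pattern in several members, noticed after the values were seen. Replicate 2 was the lowest cow of each of the 3 groups for SCARB1, SOAT1, LIPE Bt.6362.1.A1_at and LIPE Bt.13143.1.S1_at, which are 4 of the 12 probe sets, against 9.24% of all probe sets. For NCEH1 Bt.27963.1.A1_at replicate 2 was the highest cow of each group, as for 7.88% of all probe sets. Replicate 3 was the highest cow of each group for NPC1 and LIPE Bt.13143.1.S1_at (4.19% of all probe sets) and the lowest for LIPE Bt.13143.1.A1_at (2.9%), and replicate 1 was the lowest for LIPA (4.01%). On LIPE Bt.6362.1.A1_at the deviation of replicate 2 from its group mean was -0.30 in stimulated, -0.47 in superovulated and -0.72 in control cows. The mean level of the steroidogenic markers was also lowest in replicate 2 of each group, at 12.10 in stimulated, 12.03 in superovulated and 12.14 in control cows. Taken singly, only 2 of these 8 markers were lowest in replicate 2 of each group. The mean level of the macrophage markers was highest in replicate 2 of each group, at 7.67, 7.42 and 6.25. The labels do not say what same-numbered cows share, and the part of these marker levels in the members' values was not tested.

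**Figure D4:**
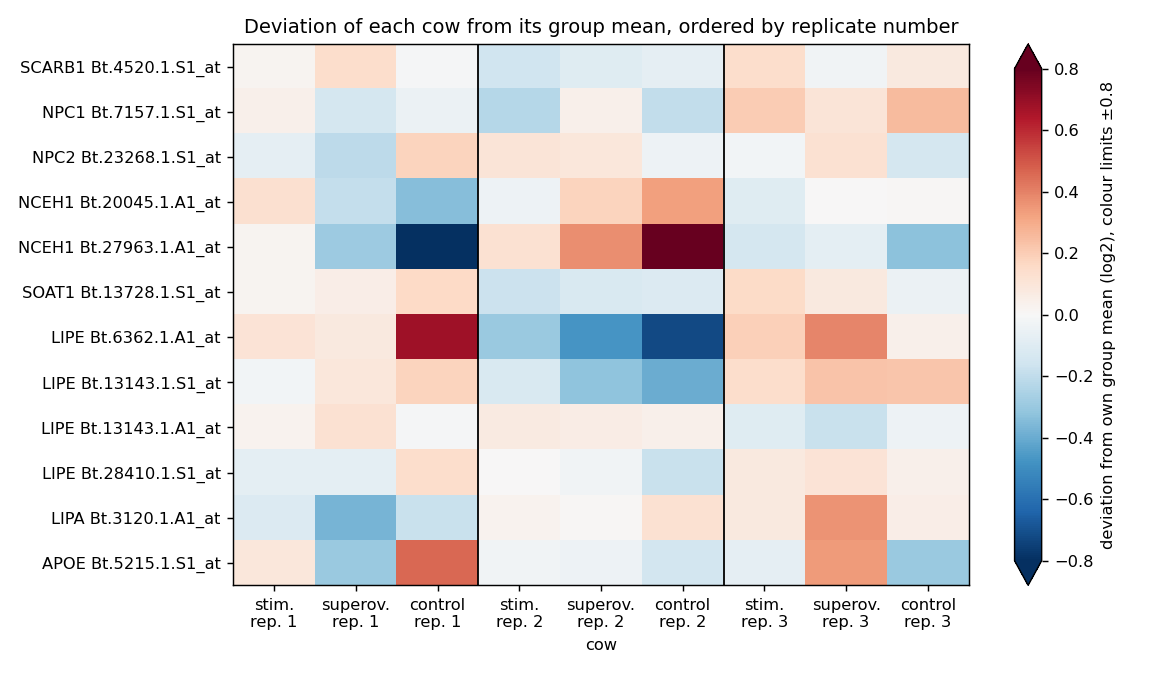
Deviation of each cow's log2 signal from its own group mean (colour, limits at ±0.8) for the 12 probe sets (rows), with the cows ordered by replicate number (columns). In the middle block, replicate 2 of each group, the deviations are below 0 for SCARB1, SOAT1, LIPE Bt.6362.1.A1_at and LIPE Bt.13143.1.S1_at. They are small, and so pale, for SCARB1 (-0.16 to -0.07) and SOAT1 (-0.17 to -0.11).

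Related genes of the pathway were followed through 4 lists with 94 genes, of which 66 had a tested probe set. The lists were chosen with earlier results of these data known, so their counts are a description. Of the 66, 0 passed in any comparison. At an unadjusted p under 0.05 the counts were 5 higher and 2 lower for stimulated against control (10.6%, beside 6.4% of all probe sets in either direction). For superovulated against control they were 1 higher and 1 lower (3.03%, beside 6.2%), and for superovulated against stimulated 4 higher and 4 lower (12.1%, beside 9.65%). The median differences of the 66 genes were 0.030, 0.036 and -0.011.

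Among lipoprotein receptors and their partners 13 of 20 genes were measured. CD36, a scavenger receptor that also carries fatty acids, averaged 9.88 ± 0.29 in stimulated against 8.98 ± 0.24 in control cows (SD, n = 3). Its difference was 0.90 (SE 0.20, adjusted p = 0.522 in limma), and superovulated minus stimulated was -0.76 (SE 0.20, adjusted p = 0.378). LRP5, a co-receptor known for Wnt signalling, had 0.18 in stimulated against control and -0.21 in superovulated against stimulated cows. Its other probe set had 0.07 and 0.03. OLR1, a receptor for oxidised lipoprotein, averaged 9.40 ± 0.35 in superovulated against 7.60 ± 1.67 in control cows (SD, n = 3, adjusted p = 0.822 in limma). MSR1, a scavenger receptor that also stands in the macrophage list, averaged 6.43 ± 1.27 in superovulated against 5.01 ± 1.11 in control cows (adjusted p = 0.845). This is a difference of 1.42 (SE 0.84), while its other 2 probe sets had 0.16 and 0.48. In stimulated against control cows MSR1 had a difference of 2.11 (SE 0.84, adjusted p = 0.772 in limma), with overlap between the groups.

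Of the genes of intracellular cholesterol transport 16 of 22 were measured. TSPO, a cholesterol-binding protein of the outer mitochondrial membrane, averaged 10.09 ± 0.62 in stimulated against 10.73 ± 0.11 in control cows (SD, n = 3). Its difference was -0.64 (SE 0.27, adjusted p = 0.778 in limma), and superovulated minus stimulated was 0.94 (SE 0.27, adjusted p = 0.408). GRAMD1C, which moves sterol from the plasma membrane to the endoplasmic reticulum, had 0.70 in stimulated against control (SE 0.30, adjusted p = 0.779) and -0.92 in superovulated against stimulated cows (SE 0.30, adjusted p = 0.450). OSBP, an oxysterol-binding protein with a dim signal here, had 0.21 in superovulated against control cows, and CAV1, the main protein of caveolae, had 0.52, with 0.82 on its other probe set (adjusted p = 0.808 for OSBP and 0.858 for the CAV1 value of 0.52).

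Efflux genes and apolipoproteins were measured for 19 of 25. RXRA, the partner of the sterol-sensing LXR receptors, averaged 6.85 ± 0.14 in stimulated against 6.39 ± 0.18 in control cows (SD, n = 3), a difference of 0.46 (SE 0.11, adjusted p = 0.527 in limma). PPARG, a lipid-sensing nuclear receptor, had 0.68 in the same comparison (SE 0.30, adjusted p = 0.780). NR1H3, which encodes LXR-alpha, averaged 9.20 ± 0.17 in superovulated against 9.57 ± 0.06 in control cows, a difference of -0.37 (SE 0.13, adjusted p = 0.796), and its other probe set had -0.44. APOM, an apolipoprotein of high-density lipoprotein, had 0.63 in superovulated against control (SE 0.26, adjusted p = 0.801) and 0.92 in superovulated against stimulated cows (SE 0.26, adjusted p = 0.392), with 0.27 and 0.42 on its other probe set. RXRA had -0.26 in superovulated against stimulated cows.

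Lipases, esterases and droplet proteins were measured for 18 of 27. PLIN2, the coat protein of lipid droplets, averaged 11.94 ± 0.13 in stimulated against 12.81 ± 0.43 in control cows (SD, n = 3). Its difference was -0.87 (SE 0.24, adjusted p = 0.627 in limma), and superovulated minus stimulated was 0.61 (SE 0.24, adjusted p = 0.493). The decimal marks of PLIN2 and CAV1 were placed with posterior probabilities of 0.976 and 0.973, lower than for any member, and LPL was left out because its mark could not be placed. CIDEA, another droplet protein, had -0.53 in stimulated against control (SE 0.24, adjusted p = 0.782). DGAT1, which makes triglyceride, had -0.62 in superovulated against control cows (SE 0.28, adjusted p = 0.808). DAGLA, a diacylglycerol lipase with a dim signal, had 0.15 in superovulated against control and 0.14 in superovulated against stimulated cows (adjusted p = 0.830 and 0.618).

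**Figure D5:**
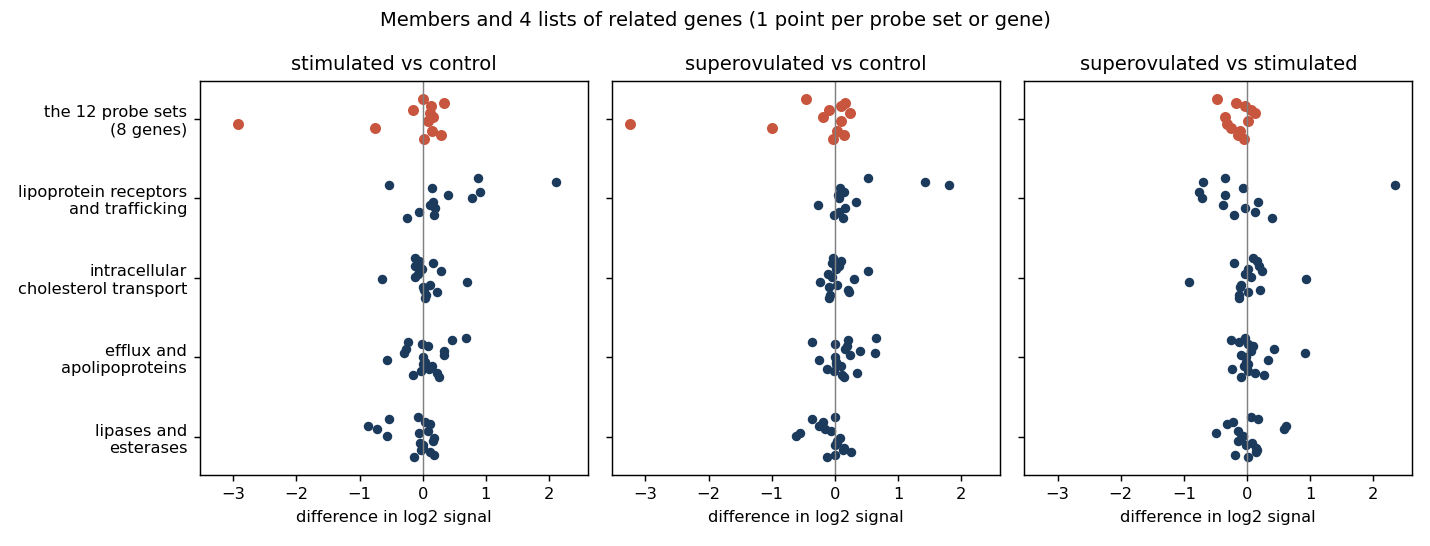
Difference in mean log2 signal (x axis) for the 12 probe sets and for the measured genes of 4 related lists (rows), 1 point per probe set or gene, in the 3 comparisons. The 2 points furthest to the left in both comparisons with control are the NCEH1 probe sets in superovulated cows (-3.25 and -1.0), and in stimulated cows they are -2.93 for NCEH1 and -0.87 for PLIN2.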

How the data were processed

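Luteal RNA of 9 cows was hybridised to 1 Affymetrix bovine array each, per the labels' protocols. The deposited values stand in another unit than a signal, since the authors' table holds runs of digits that have lost their decimal mark. No source used here gives the summarisation, normalisation or log base. The mark was restored as follows. A run that starts with 10 to 15 can be read as 1.x or 1x.x (15.5% of cells), and other runs have 1 reading below 16. Open runs were settled by the other arrays of the probe set where these had 1 reading. Where all 9 were open (3031 probe sets), their spread was combined with a prior share of 1.x readings. This prior was set by the leading digits, from 0.12% for 10 to 95% for 15, and extrapolated from runs with 1 reading. A reading needed a posterior probability of 0.95. This left 46 probe sets other than controls undecided and 23970 tested. Among members, 5 probe sets had 9 open runs (SCARB1, NPC2, SOAT1, LIPA and APOE), and the other reading had a posterior of at most 0.000298.

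limma 3.58.1 in R 4.3.3 (lmFit, eBayes) was fitted to the 9 arrays together, as 3 group means that leave 6 residual degrees of freedom, and its tests are 2-sided. No further normalisation was applied. With 3 arrays a group, precision is limited by their number. Replicates are cows. The members and lists were chosen with earlier results of these data known. All probe sets of the members are described, and a difference within 1 SE of 0 is given no direction. In each related list the 2 genes with the smallest p per comparison are named, by their probe set of highest mean.

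Same-numbered cows deviated together in superovulated and stimulated groups (correlations of deviations from group means of 0.203, 0.377 and 0.153), but not in every pair with control cows (-0.031 to 0.345), and no label says what a number marks. A fit with the replicate number as a block was run as an alternative.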

Additional observations from a re-analysis of the deposited data

How the results depend on the processing

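The 36 differences of the member probe sets were recomputed with each array left out, with quantile normalisation, without the 25% of probe sets of lowest mean, on probe sets free of open runs, with a mean-variance trend and robust prior, with only the groups compared, and with the replicate number as a block. Of the 513 values obtained, 0 passed, and 0 turned the direction of a difference larger than its SE. Only quantile normalisation and leaving out a cow of a compared group can change a difference in this balanced design. The other settings return the same difference by construction and change its SE and p alone, so they cannot test its direction. The lowest adjusted p was 0.178. With an array left out the NCEH1 difference ran from -3.50 to -2.19 (stimulated against control) and -3.82 to -2.51 (superovulated against control) on Bt.27963.1.A1_at, and from -0.92 to -0.59 and -1.17 to -0.84 on Bt.20045.1.A1_at. The 25% of lowest mean holds the LIPE probe sets Bt.13143.1.A1_at and Bt.28410.1.S1_at. The restriction to no open run keeps NCEH1 and 3 of the LIPE probe sets alone.

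The number of probe sets that passed over the whole array was small throughout. For stimulated against control it was 1, with 3 under the replicate block and 0 to 4 with an array left out. For superovulated against control it was 0 (1486 at an unadjusted p under 0.05), with 0 under the replicate block, 1 with only these groups and 0 to 1 with an array left out. For superovulated against stimulated it was 1, with 1 under the replicate block, 2 on probe sets with no open run, 2 with quantile normalisation and 1 to 3 with an array left out. The F test passed 1, with 1 to 2 with an array left out. The causes were not tested. Detection calls were not used here, so whether low signals such as NCEH1 Bt.27963.1.A1_at in treated cows stood above background is not known.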

Other observations

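The replicate 2 cows stood apart in some other gene groups as well, noticed after the values were seen. Of 15 macrophage and myeloid markers 11 were highest in replicate 2 in each of the 3 groups, and of 7 markers of pericytes and smooth muscle 5 were, against 7.88% of all probe sets. Among the related lipases, esterases and droplet proteins ABHD5, ACAT1, PLIN3, PLIN5 and PNPLA2, 5 of 18 genes, were lowest in replicate 2 in each group, against 9.24% of all probe sets. PLIN5 was dim, with a mean signal of 2.16. Counts in the other lists were lower, but mostly not 0. Of 8 endothelial markers 2 were highest in replicate 2 in each group, and of 19 efflux genes and apolipoproteins 3 were. Of 13 lipoprotein receptors and partners 1 was lowest and 2 were highest, and of 5 adipocyte markers 1 was lowest. Of 5 neutrophil and 6 surface epithelium markers, 0 were highest or lowest in replicate 2 in each group. Of 8 T and NK cell markers 1 was highest. Of 16 genes of intracellular cholesterol transport 3 were lowest and 3 highest. Of 8 steroidogenic markers 2 were lowest in replicate 2 in each group. They were STAR, which carries cholesterol into mitochondria, and the transcription factor gene NR5A1.

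The part of other cell types in the members' values was not tested. The mean level of the neutrophil markers was 4.96 to 5.61 in stimulated, 6.58 to 7.49 in superovulated and 6.36 to 7.43 in control cows. Endothelial markers had 6.71 to 7.11, 6.62 to 6.93 and 6.20 to 7.17 in these groups, and pericyte and smooth muscle markers 8.56 to 9.42, 8.88 to 9.66 and 8.83 to 9.47. T and NK cell markers had 3.36 to 4.35 in stimulated, 2.98 to 3.43 in superovulated and 2.88 to 3.39 in control cows. Adipocyte markers had 3.11 to 3.34, 3.06 to 3.43 and 3.03 to 3.28. Markers of surface epithelium had 3.14 to 3.26, 3.13 to 4.28 and 3.18 to 3.32, with the 4.28 in superovulated replicate 2.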
